A study of Mus musculus with 48 samples.

Results

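Liver transcripts of 10 bile acid genes were followed across 48 mice of the FCG model, a cross in which sex chromosomes and gonads segregate independently. The genes are Cyp7a1, Cyp8b1, Cyp27a1 and Cyp2c70 (synthesis and hydroxylation of bile acids), Baat and Slc27a5 (conjugation), Slc10a1 and Abcb11 (uptake and export), and Nr1h4 and Nr0b2 (nuclear receptors of the feedback loop). The list names the genes and sets no threshold on their values, but it was drawn up with earlier results of these data known. Each symbol matched a single Ensembl identifier among the 55414 of the count table. All 10 passed the filter on low counts. XX and XY- mice have ovaries (Ov), because Sry, the testis-determining gene, is deleted from the Y chromosome of the latter. XX;SryTg and XY-;SryTg mice carry Sry as an autosomal transgene and have testes (Te). The XY- chromosome, with or without the transgene, is written XY here. Each genotype was studied with gonads in place (Intact) and after gonadectomy (GDX), which gave 8 groups of 6 mice, and every mouse gave a library of its own. All mice are C57BL/6 congenic and received a high-fat diet (HFD, 60% of calories from fat) from 15 to 17 weeks of age. By the labels, GDX was done at 75 days of age, and the HFD lasted 11 weeks in Intact and 15 weeks in GDX mice. Gonadal status, weeks of HFD and age at the end of the HFD therefore cannot be told apart in this design. No group on another diet was analysed here, and Te mice differ from Ov mice by the transgene itself as well as by the gonad.

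Bile acids are made from cholesterol in hepatocytes. The classic route starts with CYP7A1, its rate-limiting enzyme, and the alternative route with CYP27A1, a mitochondrial sterol 27-hydroxylase. CYP8B1 adds the 12-alpha hydroxyl group that makes cholic acid, and in mice CYP2C70 makes the muricholic acids, so the activities of both set the composition of the pool. SLC27A5 activates bile acids with coenzyme A and BAAT joins them to taurine. NTCP, encoded by Slc10a1, takes bile acids up from blood, and BSEP, encoded by Abcb11, exports them into bile. FXR, encoded by Nr1h4, senses bile acids and induces SHP, encoded by Nr0b2, which represses bile acid synthesis. These are background facts, and bile acids themselves were not measured.

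Promoter sequences were taken from RefSeq (build GRCm38.p6), which held entries for 7 of the 10 genes. They are shown for 4 of the genes whose levels moved in the comparisons and whose window held a searched motif. Slc10a1 met both terms as well and is not shown. Each run covers 120 bases on the strand of the gene, and bases are counted back from the annotated start. In Cyp8b1 (chr9:121916306-121916425, minus strand) and Cyp2c70 (chr19:40187287-40187406, minus strand), capitals mark CAAAGTCCA, the letters of an HNF4A-type element. In Abcb11 (chr2:69342617-69342736, minus strand), they mark an IR-1 element (AGGNCA and TGNCCT spaced by 1 base), an inverted repeat of the kind FXR binds with RXR. In Nr0b2 (chr4:133553256-133553375, plus strand), they mark both copies of TCAAGG, the core of an NR5A2-type element.
Cyp8b1: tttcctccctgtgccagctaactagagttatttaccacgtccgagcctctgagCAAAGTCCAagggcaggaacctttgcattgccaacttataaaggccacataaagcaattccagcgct
Cyp2c70: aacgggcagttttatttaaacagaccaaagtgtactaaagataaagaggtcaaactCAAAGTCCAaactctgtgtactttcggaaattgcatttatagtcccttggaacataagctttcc
Abcb11: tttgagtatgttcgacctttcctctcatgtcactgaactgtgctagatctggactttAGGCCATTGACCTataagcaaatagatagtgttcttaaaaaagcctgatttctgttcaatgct
Nr0b2: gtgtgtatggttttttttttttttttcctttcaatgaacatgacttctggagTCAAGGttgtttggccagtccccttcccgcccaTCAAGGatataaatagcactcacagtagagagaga

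The matches lay at -67 to -59 in Cyp8b1, at -64 to -56 in Cyp2c70, at -63 to -51 in Abcb11, and at -68 to -63 and -35 to -30 in Nr0b2. Both strands of the 250 bases before the start were searched, and the motifs were chosen with these sequences in view. CAAAGTCCA was present in 0.384% of 32851 promoters, the IR-1 element in 0.0852%, and TCAAGG in 12.5%. TTCNNNGAA, a STAT5-type motif present in 7.02% of promoters, matched in Nr0b2 (-91 to -83) and Slc10a1 (-53 to -45). CAAGGTCA, the longer NR5A2-type motif present in 1.33% of promoters, matched in none of the 7 genes. A match describes letters in a window and is not a measured binding site.

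Libraries held 13071874 to 20045141 reads counted on genes, and 3 reads, taken as the smallest level shown, equal 0.150 to 0.230 CPM, a gene's reads relative to all gene reads of its library on a common scale. Levels below are CPM scaled by the trimmed mean of M values (TMM). Xist ranged from 166 to 1203 CPM in XX and from 0.437 to 7.50 CPM in XY libraries, and 4 Y-linked genes were low in XX. In XX Te Intact replicate 4 these Y-linked genes reached 1.08 to 4.26 CPM, against at most 0.204 CPM in the other 5 mice of its group. With this mouse and replicate 5 of the same group both omitted (chosen after seeing the data), 2 calls among the 10 genes were lost, those of Cyp27a1 after castration and of Slc27a5 in XX minus XY. The defining hepatocyte markers (Alb, Apoa1, Serpina1c and Ttr) summed to 57824 to 135600 CPM. Of 3 ileal markers, Fabp6 had 0 reads in all 48 libraries and Vil1 reached at most 0.525 CPM. The third, Slc10a2, had reads in every library, with a median of 27.8 and a high of 107 CPM. Reads mapped outside annotated genes made up 3.47 to 6.20% in Intact and 8.52 to 11.3% in GDX libraries. In bulk liver, fewer cells of a type and less RNA per cell cannot be told apart.

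Across the 48 mice the 10 genes covered a wide range. On the scale of median CPM per kb of exon, Slc10a1 (411) and Slc27a5 (260) were highest, followed by Cyp2c70 (177), Cyp27a1 (157), Baat (121), Cyp8b1 (93.5), Cyp7a1 (91.0), Abcb11 (81.5) and Nr1h4 (74.2). Nr0b2 stood apart at 5.45, with 23 to 270 reads per mouse, so its values carry the largest counting error of the set. Exon lengths were those of the NCBIM37 annotation and not of the authors' build. Between groups, the highest mean exceeded the lowest 3.68-fold for Cyp8b1, 3.40-fold for Cyp7a1 and 2.77-fold for Nr0b2, but only 1.49-fold for Nr1h4. Mice of a group differed as well: in XX Te Intact, Cyp7a1 was 108, 147, 148 and 156 CPM in 4 mice and 340 and 474 CPM in the other 2. In the order of the 8 group means, neighbours differed by more than the larger of their SDs at 2 of 7 steps for Baat, at 1 for Abcb11 and Nr1h4, and at none for the remaining 7 genes.

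**Figure D1:**
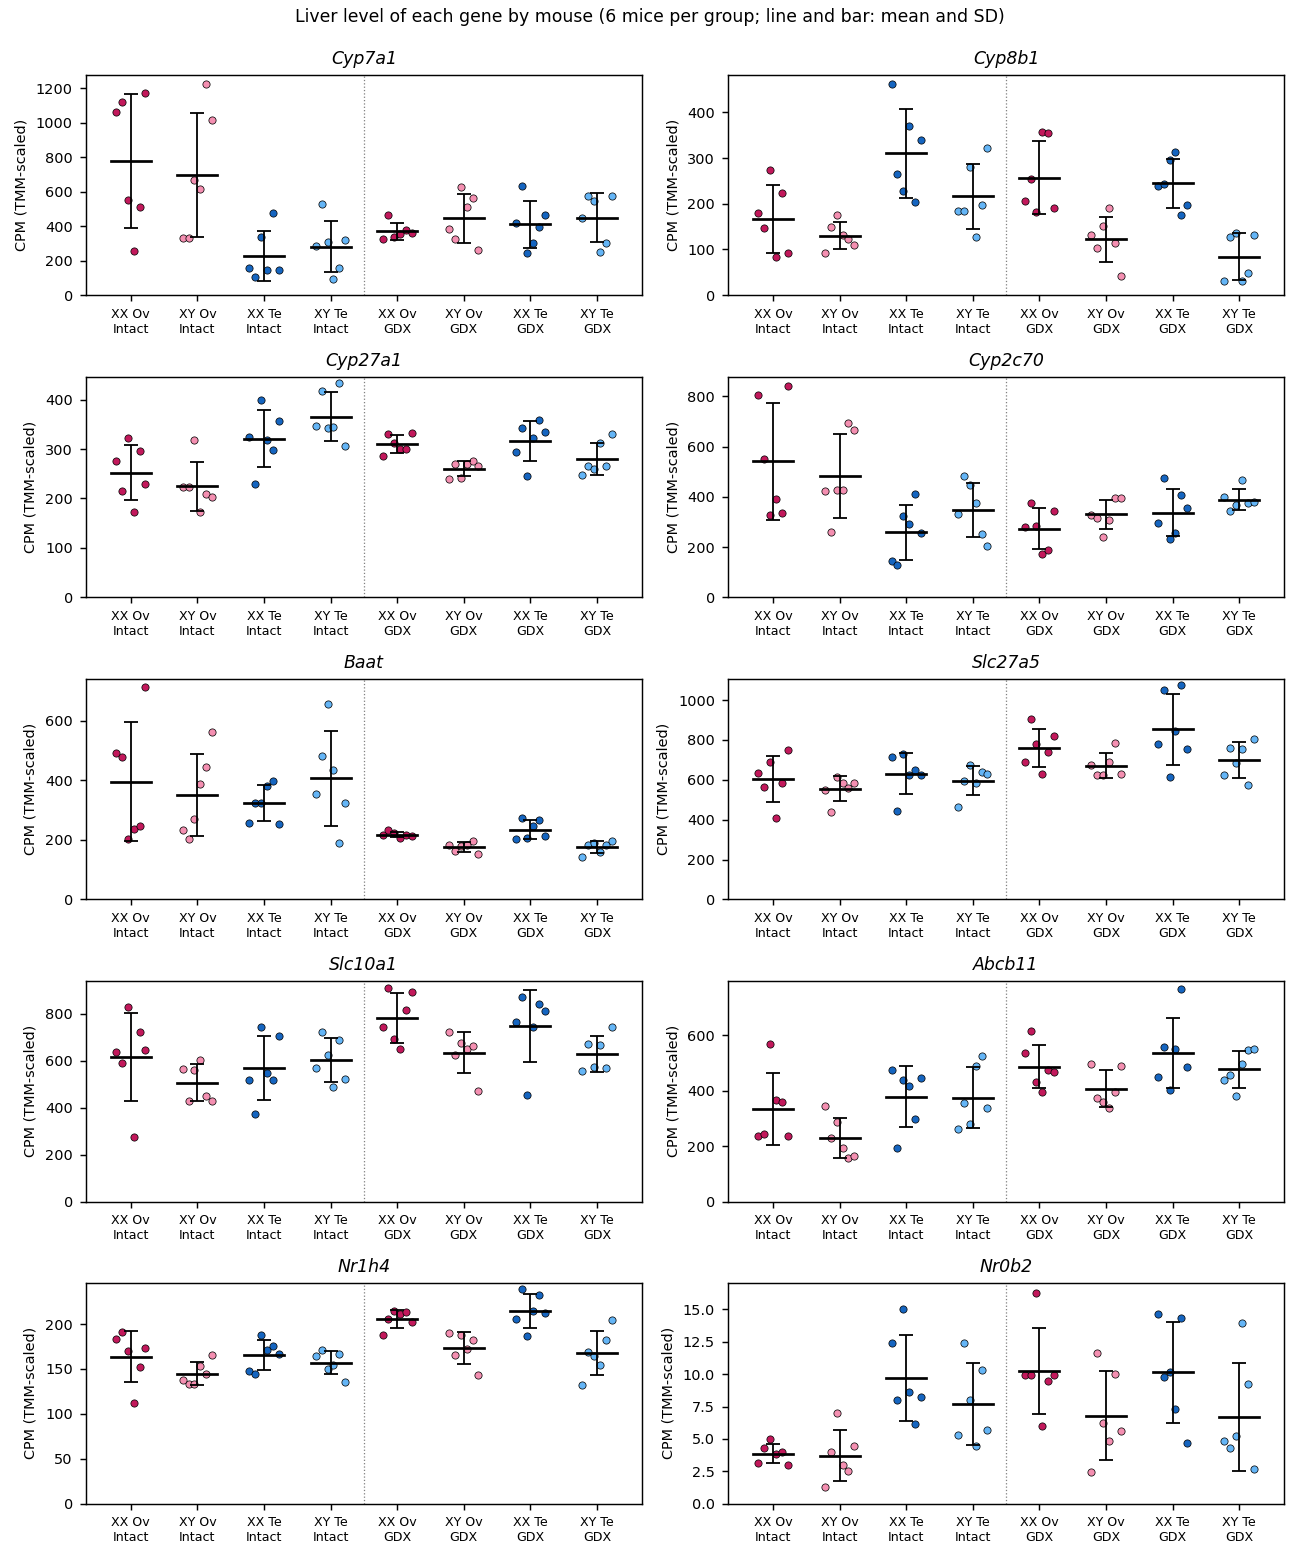
Level of each gene in every mouse (CPM, TMM-scaled, linear axes from 0) for the 8 groups, with points for mice and lines and bars for the mean and SD of 6 mice. Cyp7a1 is spread widely in Intact mice with ovaries (254 to 1222 CPM), and Baat lies in a narrow band in all GDX mice (143 to 275 CPM).

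Levels by group were as follows, as mean ± SD of 6 mice. Cyp7a1 was 778 ± 387 CPM in XX Ov Intact and 697 ± 361 in XY Ov Intact, against 229 ± 145 in XX Te Intact and 282 ± 150 in XY Te Intact. After GDX its 4 group means drew together, at 370 ± 49.2 (XX Ov), 445 ± 144 (XY Ov), 410 ± 135 (XX Te) and 449 ± 142 (XY Te). The Intact groups thus separated by gonad, and the GDX groups did not separate beyond their spread. Cyp8b1 was 166 ± 74.3 CPM in XX Ov Intact, 130 ± 29.0 in XY Ov Intact, 311 ± 97.4 in XX Te Intact and 216 ± 71.6 in XY Te Intact. After GDX it was 257 ± 80.6 (XX Ov) and 245 ± 53.7 (XX Te), but 122 ± 49.8 (XY Ov) and 84.5 ± 52.4 (XY Te). Its GDX groups therefore parted by chromosome complement and not by former gonad. In XY Te GDX the mice fell at 30.8, 31.6 and 49.2 CPM and at 127, 132 and 137 CPM. Nr0b2 was 3.86 ± 0.752 CPM in XX Ov Intact and 3.70 ± 1.97 in XY Ov Intact, below the other 6 groups, whose means ran from 6.69 to 10.3 CPM.

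The gonadal effect compared 12 Intact mice with ovaries and 12 with testes, averaged over XX and XY. Cyp7a1 and Cyp2c70 were higher in Ov mice, and Cyp8b1, Cyp27a1, Abcb11 and Nr0b2 were higher in Te mice. These 6 of the 10 genes passed the test (edgeR quasi-likelihood, Benjamini-Hochberg adjusted p under 0.05), as did 25.3% of the 15414 genes tested. In the direction of Ov there were 2 (14.1% of all genes) and in the direction of Te 4 (11.3% of all genes). The median log2 difference of the 10 genes was -0.07, against 0.04 over all genes, and the median size of the difference 0.48 against 0.22.

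Among the synthesis enzymes, Cyp7a1 had a low of 254, a median of 641 and a high of 1222 CPM in Ov mice, and 94.7, 222 and 528 CPM in Te mice. The arms overlapped, but 8 of 12 Ov mice exceeded every Te mouse. The means, 738 and 256 CPM, differed 2.90-fold (log2 fold change 1.54 ± 0.26 SE, adjusted p = 2.3e-05). Cyp2c70 ranged from 259 to 843 CPM in Ov mice (median 427) and from 127 to 483 CPM in Te mice (median 307). It was higher in Ov by 0.77 ± 0.18 on the log2 scale (adjusted p = 0.0019). Cyp8b1 went the other way, with 83.1 to 273 CPM in Ov mice (median 139) and 128 to 461 CPM in Te mice (median 246), a log2 fold change of -0.81 ± 0.23 (adjusted p = 0.0084). The enzyme of the alternative route, Cyp27a1, was 238 ± 52.0 CPM in Ov and 343 ± 56.0 CPM in Te mice (SD, n = 12). Its log2 fold change was small but precise, at -0.53 ± 0.09 (adjusted p = 2.9e-05), and 8 of 12 Te mice lay above every Ov mouse.

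Conjugation and uptake genes gave no call. Baat differed by 0.04 ± 0.16 on the log2 scale (adjusted p = 0.88; -0.30 and called with 1 surrogate variable), Slc27a5 by -0.08 ± 0.09 (adjusted p = 0.52) and Slc10a1 by -0.07 ± 0.12 (adjusted p = 0.70). The exporter Abcb11 had a low of 158, a median of 239 and a high of 567 CPM in Ov mice and 194, 386 and 527 CPM in Te mice. Its log2 fold change was -0.44 ± 0.15 (adjusted p = 0.026), and no Te mouse lay above every Ov mouse. Of the regulators, Nr1h4 differed by -0.07 ± 0.07 (adjusted p = 0.48). Its target Nr0b2 had a low of 1.30, a median of 3.88 and a high of 7.03 CPM in Ov mice and 4.46, 8.12 and 15.1 CPM in Te mice. It was lower in Ov by -1.19 ± 0.25 on the log2 scale (adjusted p = 0.00051), and 10 of 12 Ov mice lay below every Te mouse.

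Within XX mice, where 5.82% of genes were called, Cyp7a1 (log2 fold change 1.77 ± 0.37), Cyp2c70 (1.07 ± 0.26) and Nr0b2 (-1.33 ± 0.35) passed, 2 higher (3.63% of all genes) and 1 lower (2.19%) in Ov mice. Within XY mice, where 15.5% were called, Cyp7a1 (1.31 ± 0.37), Cyp27a1 (-0.70 ± 0.13), Abcb11 (-0.71 ± 0.21) and Nr0b2 (-1.04 ± 0.36) passed, 1 higher (8.15% of all genes) and 3 lower (7.38%). Cyp8b1 was -0.90 ± 0.33 in XX (adjusted p = 0.090) and -0.73 ± 0.33 in XY (adjusted p = 0.13). The difference between the XX and XY gonadal effects was called for 0 of the 10 genes and for 0% of all genes by edgeR. At an unadjusted p under 0.05 the counts were 0 of the 10 and 989 of all genes, and the Wald test of DESeq2 called 0 and 2. The calls of Cyp7a1, Cyp2c70, Cyp8b1, Cyp27a1 and Nr0b2 were kept in each refitted model and without any single mouse. Requiring a fold above 1.5 as well left 4 calls, without Cyp27a1 and Abcb11, and 1555 of all genes. The call of Abcb11 was lost without XX Ov Intact replicate 1 or 2, XY Ov Intact replicate 5, XX Te Intact replicate 1, or XY Te Intact replicate 4 or 5 (adjusted p 0.053 to 0.062), and also on library totals (0.063) and with the compared arms alone (0.12). The compared arms alone called 5 of the 10 and 1694 of all genes, against 3907 in the fit over all groups. That larger fit uses 1 dispersion per gene, although Cyp7a1 spread more widely in Ov Intact than in Ov GDX mice.

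Some markers of other cell types were also called in the gonadal effect. Of all genes, 14.1% were called higher and 11.3% lower in Ov mice. Of 5 Kupffer cell and macrophage markers, 2 were higher in Ov mice. The sum of the 5 ranged from 188 to 450 CPM (median 319) in Ov and from 126 to 394 CPM (median 181) in Te mice, so the arms overlapped. Of 4 lymphocyte markers 3 were higher in Ov mice, with sums of 1.48 to 16.5 CPM against 1.07 to 5.52 CPM. Of the 4 hepatocyte markers tested, Serpina1c alone differed, by -0.92 ± 0.13 on the log2 scale. With the summed macrophage markers as a covariate, an alternative chosen after seeing the data, 5 of the 10 genes were called, as were 2743 of all genes, and Abcb11 was not (-0.30, adjusted p = 0.17).

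**Figure D2:**
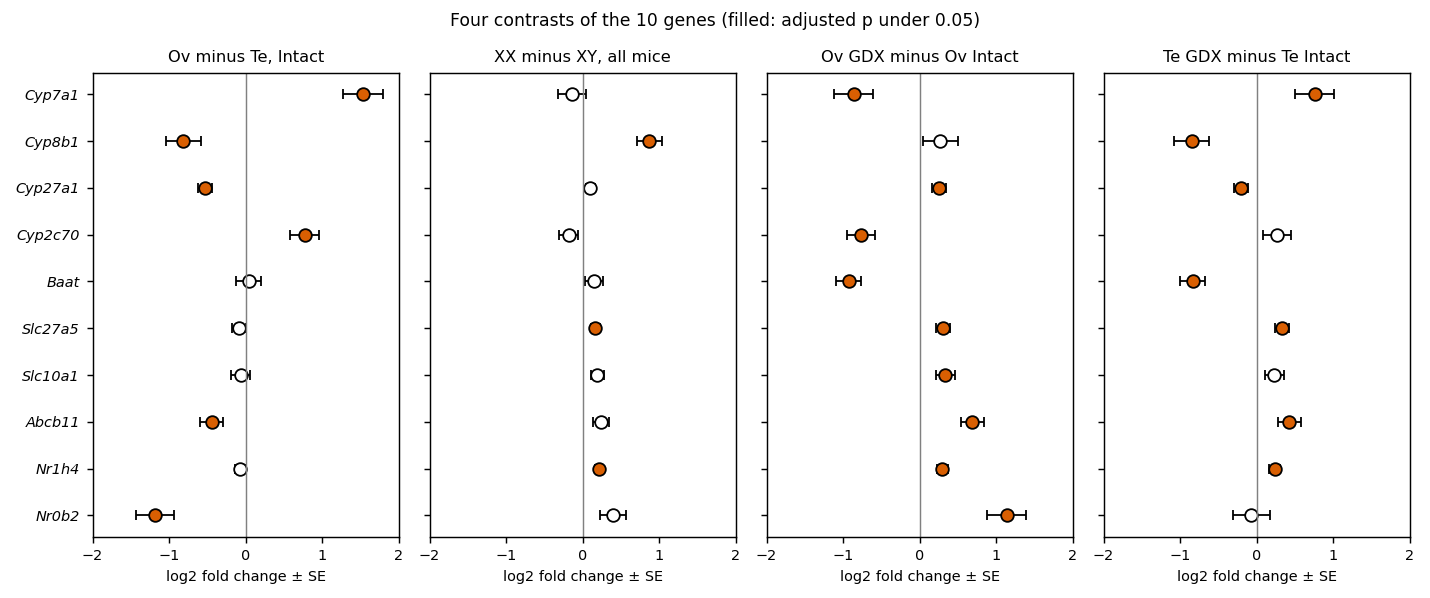
Log2 fold change ± SE of the 10 genes in 4 contrasts of a model over 48 mice, with filled points for adjusted p under 0.05 and the zero line in grey. Cyp7a1 lies at 1.54 in Ov minus Te, -0.86 after ovariectomy and 0.76 after castration, and Cyp8b1 at 0.87 in XX minus XY.

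Ovariectomy compared 12 Ov GDX with 12 Ov Intact mice. Cyp7a1, Cyp2c70 and Baat were lower after GDX, and Cyp27a1, Slc27a5, Slc10a1, Abcb11, Nr1h4 and Nr0b2 were higher. These 9 of 10 genes passed in a contrast in which 69.4% of all genes passed, so the count is near the background. Of the 9, 6 were higher (36% of all genes) and 3 lower (33.4% of all genes). Cyp7a1 fell from 738 to 407 CPM (log2 fold change -0.86 ± 0.26, adjusted p = 0.0032), and its GDX mice ranged from 261 to 626 CPM with a median of 369. For Cyp7a1, 6 of the 12 Intact mice exceeded every GDX mouse. Cyp2c70 fell from 513 to 302 CPM (-0.77 ± 0.18, adjusted p = 0.00033). Baat fell from 373 ± 166 to 197 ± 25.3 CPM (SD, n = 12; -0.93 ± 0.17, adjusted p = 4.6e-06), and 10 of 12 Intact mice lay above every GDX mouse.

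Among the genes that rose after ovariectomy, Nr0b2 went from 3.78 to 8.52 CPM (log2 fold change 1.14 ± 0.25, adjusted p = 0.00012). Its GDX mice ranged from 2.43 to 16.3 CPM, and 7 of 12 lay above every Intact mouse. Abcb11 rose from 282 to 447 CPM (0.69 ± 0.15, adjusted p = 0.0001), with 8 of 12 Intact mice below every GDX mouse. The remaining increases were smaller, at 0.34 ± 0.12 for Slc10a1, 0.30 ± 0.09 for Slc27a5, 0.30 ± 0.07 for Nr1h4 and 0.26 ± 0.09 for Cyp27a1 (adjusted p of 0.012, 0.0035, 0.00028 and 0.011). Cyp8b1 was 148 ± 57.0 CPM in Intact and 190 ± 95.3 CPM in GDX mice, a log2 difference of 0.27 ± 0.23 (adjusted p = 0.30). Within XX, 8 of 10 genes passed, against 55.1% of all genes, with 5 higher (26.5% of all genes) and 3 lower (28.6%). Within XY, Baat, Abcb11, Nr1h4 and Nr0b2 passed, 4 of 10 against 59.4%, with 3 higher (30.3%) and 1 lower (29.2%). Cyp7a1 was -1.07 ± 0.37 in XX (adjusted p = 0.012) and -0.65 ± 0.36 in XY mice (adjusted p = 0.12), and the difference between these was not tested. With 1 surrogate variable the calls were 5 higher and 0 lower (3088 and 3750 of all genes), and Cyp7a1 (0.028), Cyp2c70 (-0.11), Baat (-0.10) and Cyp27a1 (0.18) were not called.

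Castration compared 12 Te GDX with 12 Te Intact mice. Cyp8b1, Cyp27a1 and Baat were lower after GDX, and Cyp7a1, Slc27a5, Abcb11 and Nr1h4 were higher. These 7 of 10 genes compare with 63.3% of all genes called, with 4 higher (33.4% of all genes) and 3 lower (29.9% of all genes). Cyp7a1 rose from 256 to 429 CPM (log2 fold change 0.76 ± 0.26, adjusted p = 0.010). Its GDX mice ranged from 245 to 634 CPM, so the arms overlapped, and 6 of 12 Intact mice lay below every GDX mouse. Cyp8b1 fell from 263 to 165 CPM (-0.85 ± 0.23, adjusted p = 0.0016). This change was -1.35 ± 0.33 in XY mice (adjusted p = 0.00063, 56.7% of genes called) and -0.34 ± 0.32 in XX mice (adjusted p = 0.42, 37.1% of genes called), a pair of effects whose difference within Te mice was not tested. Baat fell from 365 to 205 CPM (-0.84 ± 0.17, adjusted p = 3.2e-05), and 9 of 12 Intact mice exceeded every GDX mouse.

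Within XY mice 3 of 10 genes passed after castration, Cyp8b1, Cyp27a1 and Baat, all lower (28.8% of all genes), and 0 were higher (28%). Within XX mice Slc27a5 and Nr1h4 passed, both higher (18.4% of all genes), and 0 were lower (18.7%). Abcb11 rose by 0.42 ± 0.15 on the log2 scale after castration (adjusted p = 0.013), Slc27a5 by 0.33 ± 0.09 (adjusted p = 0.0017) and Nr1h4 by 0.24 ± 0.07 (adjusted p = 0.0036). Cyp27a1 changed by -0.20 ± 0.09 (adjusted p = 0.048), a call lost without any 1 of 19 mice (adjusted p 0.050 to 0.10) and on library totals, where the value was -0.0026. Cyp2c70 (0.27 ± 0.18), Slc10a1 (0.23 ± 0.12) and Nr0b2 (-0.07 ± 0.24) did not pass. Scaling bore on all these values. On library totals the median of all genes moved from 0.07 to 0.27 after castration and from 0.06 to 0.27 after ovariectomy, and the members split 6 higher and 2 lower after castration (7296 and 3211 of all genes), with Cyp2c70 (0.50) and Slc10a1 (0.43) called. The share of reads outside genes did not overlap between Intact and GDX libraries, and with that share as a covariate edgeR called 0 of the 10 genes in either contrast, and 20 and 1161 of all genes after ovariectomy and castration. In the same fit, Baat was 1.04 after ovariectomy and 1.15 after castration, with the sign turned. The effect of gonadectomy on these genes cannot be told apart from that of the cohort.

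Some markers of other cell types were called after gonadectomy too, and not always in the same direction within a list. Of all genes, 69.4% were called after ovariectomy (36% higher, 33.4% lower) and 63.3% after castration (33.4% higher, 29.9% lower). Of 5 cholangiocyte markers, Krt7 (1.77 ± 0.34 on the log2 scale), Krt19 (0.93 ± 0.36) and Spp1 (0.71 ± 0.29) were higher after ovariectomy. After castration Krt7 (1.04 ± 0.33) and Krt19 (0.95 ± 0.34) were higher and Sox9 (-0.68 ± 0.20) was lower. Their sum ranged from 11.7 to 54.7 CPM in Ov Intact, 20.3 to 141 CPM in Ov GDX, 9.65 to 126 CPM in Te Intact and 23.7 to 139 CPM in Te GDX mice. Of 4 endothelial markers, Stab2 was higher (0.72 ± 0.15 after ovariectomy and 0.75 ± 0.15 after castration), Clec4g lower (-0.91 ± 0.12 and -0.50 ± 0.12), and Pecam1 higher after castration (0.55 ± 0.16). The endothelial sum was 150 to 208 CPM in Ov Intact and 112 to 293 CPM in Ov GDX, and 121 to 225 CPM in Te Intact and 123 to 312 CPM in Te GDX mice. Of the 3 neutrophil markers tested, 3 were lower after ovariectomy and 2 after castration. The stellate cell marker Col1a1 was higher in both (2.09 ± 0.41 and 1.23 ± 0.40), and of 4 hepatocyte markers 3 were lower after ovariectomy and 2 after castration. The part of these cell types in the results on gonadectomy was not tested.

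Castration minus ovariectomy is a quantity in which a shift shared by all GDX mice cancels. By edgeR (adjusted p under 0.05) it was called for 5 of the 10 genes, against 5.6% of all genes. Cyp7a1 (1.62 ± 0.36 on the log2 scale, adjusted p = 0.0042) and Cyp2c70 (1.04 ± 0.26, adjusted p = 0.011) moved up with castration relative to ovariectomy (2.78% of all genes called in that direction). Nr0b2 (-1.21 ± 0.35, adjusted p = 0.030), Cyp8b1 (-1.12 ± 0.33, adjusted p = 0.032) and Cyp27a1 (-0.46 ± 0.13, adjusted p = 0.025) moved down (2.82% of all genes). Baat, which fell in both GDX arms, had a difference of 0.09 ± 0.23 (adjusted p = 0.83; -0.29 and called with 1 surrogate variable). This quantity equals the gonadal effect in Intact mice minus that in GDX mice, and rests on the same libraries. Cyp8b1 lost its call without XX Te Intact replicate 1 (adjusted p 0.051 to 0.056 over the omissions), XX Ov GDX replicate 4 or XY Ov GDX replicate 4, and Nr0b2 without XX Te Intact replicate 3 or XY Ov GDX replicate 2 (0.051 to 0.052). With no filter on low counts both lost it (0.083 and 0.076), and Cyp27a1 lost it with the macrophage markers as a covariate (0.085).

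**Figure D3:**
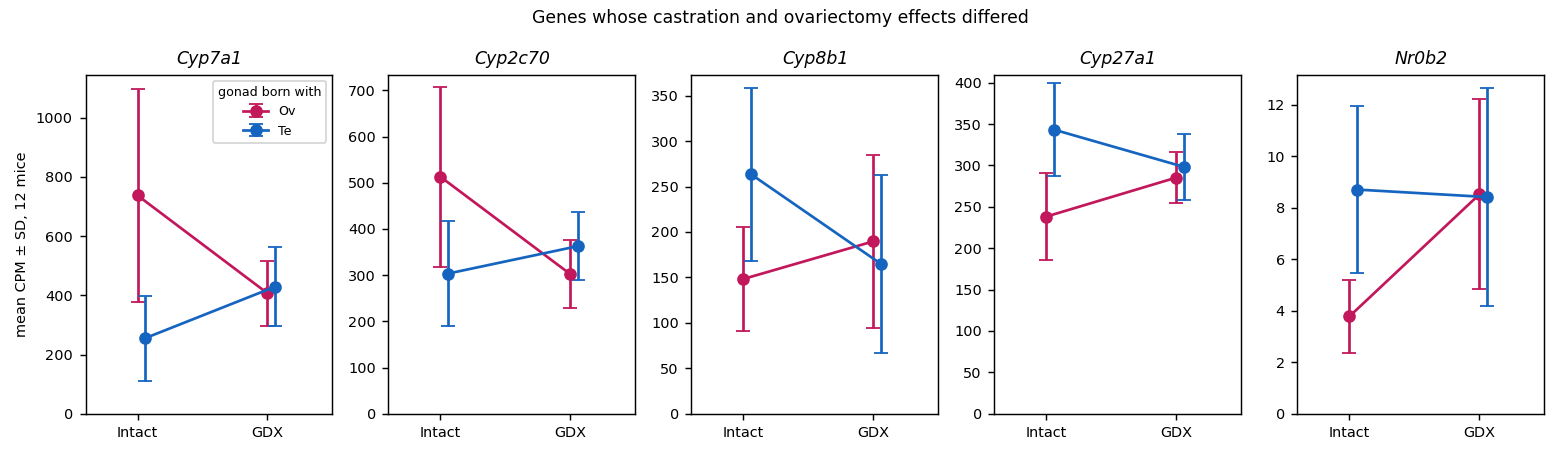
Mean level (CPM, TMM-scaled, error bars SD of 12 mice) of the 5 genes called in castration minus ovariectomy, in Intact and GDX mice born with ovaries or testes. The lines start apart and meet after GDX for Cyp7a1, which goes from 738 and 256 CPM to 407 and 429 CPM.

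After GDX, mice that had been born with ovaries and with testes were compared with each other. By edgeR 0 of the 10 genes passed, against 0.0908% of all genes. None had an unadjusted p under 0.05, nor did DESeq2 call any. Cyp7a1 was 407 ± 110 CPM in Ov GDX and 429 ± 134 CPM in Te GDX mice (SD, n = 12), a log2 difference of -0.08 ± 0.26. Nr0b2 was 8.52 ± 3.69 and 8.42 ± 4.24 CPM (0.02 ± 0.24). For Cyp8b1, whose levels were 190 ± 95.3 and 165 ± 97.8 CPM, the difference was 0.30 ± 0.23, and for Cyp2c70 it was -0.27 ± 0.18.

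The chromosomal effect compared 24 XX and 24 XY mice over all gonads and both gonadal statuses. Cyp8b1, the 12-alpha hydroxylase, was higher in XX mice, and so were Nr1h4 and, by a small margin, Slc27a5. These 3 of 10 genes, all higher in XX, compare with 36.7% of all genes called, and 21.9% called higher. Cyp8b1 had a low of 83.1, a median of 234 and a high of 461 CPM in XX mice and 30.8, 131 and 322 CPM in XY mice. The means, 245 and 138 CPM, differed 1.83-fold (log2 fold change 0.87 ± 0.16, adjusted p = 2.9e-05), although the arms overlapped. Nr1h4 was 187 ± 29.9 CPM in XX and 161 ± 19.9 CPM in XY mice (SD, n = 24; 0.21 ± 0.05, adjusted p = 0.00055), and Slc27a5 differed by 0.17 ± 0.06 (adjusted p = 0.038). The call of Slc27a5 was kept in 1 of 9 alternative fits, not counting those without 1 mouse. Abcb11 (0.24 ± 0.11), Slc10a1 (0.19 ± 0.08) and Nr0b2 (0.40 ± 0.17) had adjusted p of 0.064, 0.077 and 0.068, and Cyp7a1 differed by -0.14 ± 0.18 (adjusted p = 0.60).

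Within Intact mice, where 10.7% of genes were called, 0 of the 10 passed by edgeR or DESeq2, and 0 had an unadjusted p under 0.05. Cyp8b1 was 83.1 to 461 CPM (median 225) in XX Intact and 92.8 to 322 CPM (median 162) in XY Intact mice, with a log2 difference of 0.44 ± 0.23 (adjusted p = 0.24). Within GDX mice, where 34.3% were called and 19.5% were called higher, Cyp8b1, Slc27a5 and Nr1h4 passed, all higher in XX. Cyp8b1 had a low of 176, a median of 242 and a high of 358 CPM in XX GDX mice and 30.8, 120 and 191 CPM in XY GDX mice. The overlap was slight, since 9 of 12 XX GDX mice lay above every XY GDX mouse and 11 of 12 XY GDX mice lay below every XX GDX mouse. The means, 251 and 103 CPM, differed 2.47-fold (1.31 ± 0.23, adjusted p = 1.5e-05). Nr1h4 was 210 against 171 CPM (0.30 ± 0.07, adjusted p = 0.00065), with 9 of 12 XX GDX mice above every XY GDX mouse, and Slc27a5 was 0.23 ± 0.09 (adjusted p = 0.044). Slc27a5 kept this call in 2 of 11 alternative fits. The effect in GDX minus that in Intact mice was not past the threshold for Cyp8b1 (0.87 ± 0.32, adjusted p = 0.16) or for any of the 10, against 2.12% of all genes, so the effects in Intact and GDX mice were not shown to differ. Cyp8b1 was the single one of the 10 with an unadjusted p under 0.05 there, and DESeq2 called 0.

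For Baat in XX minus XY in GDX mice, the call varied with the mice fitted, and the overlap of ranges with the scaling. On TMM-scaled CPM all 12 XX GDX mice (203 to 275 CPM) lay above all 12 XY GDX mice (143 to 196 CPM). The edgeR fit over all groups nevertheless gave 0.37 ± 0.16 (adjusted p = 0.079). With the compared arms alone, edgeR called Baat, at 0.31 (adjusted p = 7.4e-05). The reason for this difference between fits was not tested. On library-total CPM the Baat ranges overlapped, at 203 to 260 and 176 to 224. TMM factors were 0.946 to 1.07 in XX GDX and 1.07 to 1.24 in XY GDX libraries, and library totals moved the median of all genes from 0.08 to -0.10. On library totals, Cyp8b1 stayed higher in XX GDX mice, Nr1h4 (0.12, adjusted p = 0.12) and Slc27a5 (0.05, adjusted p = 0.72) lost their calls, and Cyp2c70 was called lower (-0.43, adjusted p = 0.033). Over all mice the members then split 2 higher and 1 lower (1208 and 3081 of all genes). With GDX mice alone and the share of reads outside genes as a covariate, chosen after seeing the data, Cyp8b1 was 0.99 (adjusted p = 0.13) and the sole call was Baat (0.39, adjusted p = 0.0056).

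Macrophage transcripts also differed by chromosome complement, in a contrast in which 21.9% of all genes were called higher and 14.8% lower in XX mice. All 5 markers were lower in XX mice, with sums of 92.9 to 258 CPM (median 176) in XX GDX and 256 to 909 CPM (median 492) in XY GDX mice. In Intact mice the sums were 126 to 370 CPM (XX) and 163 to 450 CPM (XY). The 3 neutrophil markers tested and 3 of 4 lymphocyte markers were lower in XX as well, and 2 of 5 cholangiocyte markers were higher. Of 4 endothelial markers Pecam1 alone was called, at 21.7 CPM in XX and 57.0 CPM in XY mice (-1.31 ± 0.12 on the log2 scale, and -1.87 ± 0.17 in GDX mice). Of the adipocyte list only Cidec, a lipid droplet gene, was tested, at 26.8 against 8.05 CPM (1.70 ± 0.25, and 2.38 ± 0.37 in GDX mice), whereas Adipoq had 0 reads in 29 and Plin1 in 42 of the 48 mice. Of 4 stellate cell markers Col1a1 was higher in XX (0.95 ± 0.28). With the macrophage sum as a covariate, chosen after seeing the data, Cyp8b1 kept its call in XX minus XY, while Nr1h4 (-0.0039) and Slc27a5 (-0.053) turned sign and lost theirs. In GDX mice the same held, with -0.0060 for Nr1h4 and -0.075 for Slc27a5, and Cyp2c70 was called lower in XX (-0.71 over all mice and -0.98 in GDX mice). With this covariate 1297 of all genes were called over all mice and 848 in GDX mice, against 5657 and 5288 without it. The macrophage sum nearly separated XX GDX from XY GDX mice, so covariate and chromosome complement cannot be told apart well in this fit. Slc27a5 lost its call without any 1 of 14 mice over all mice (adjusted p 0.050 to 0.21) and of 18 in GDX mice (0.051 to 0.23).

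The wider pathway was read from a list of 41 other bile acid genes, of which 35 were tested. Fgf15, Gpbar1, Vdr, Ch25h, Hsd3b7 and Slc51a did not pass the filter on low counts. Fgf15 and Hsd3b7 had 0 CPM in every group. Whether this reflects the livers or the counting of reads was not tested, so absence of these transcripts is not shown. In the gonadal effect 22 of 35 were called, 6 higher and 16 lower in Ov mice, against 25.3% of all genes (14.1% higher and 11.3% lower). The organic anion transporter Slco1a1 was 15.7 CPM in Ov and 508 CPM in Te mice (log2 fold change -5.17 ± 0.51, adjusted p = 1.1e-10). Its arms overlapped, because XX Te Intact replicates 1 and 2 had 26.0 and 13.0 CPM, whereas the other 4 mice of their group had 312 to 600 CPM. Cyp7b1, the oxysterol 7-alpha hydroxylase of the alternative route, ranged from 13.5 to 49.4 CPM in Ov and from 57.1 to 522 CPM in Te mice, with no overlap (-2.38 ± 0.22, adjusted p = 9.6e-12). The transporter Slco1a4 ran opposite, at 126 against 43.8 CPM (1.56 ± 0.17, adjusted p = 7.2e-10), and the basolateral exporter Abcc4 was 7.54 against 4.14 CPM (0.86 ± 0.20, adjusted p = 0.0013).

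After castration 17 of 35 pathway genes were called, 8 higher and 9 lower, against 63.3% of all genes (33.4% higher and 29.9% lower). Slco1a1 fell to 8.28 CPM (-6.10 ± 0.54, adjusted p = 2.8e-12) and Cyp7b1 to 28.4 CPM (-2.40 ± 0.22, adjusted p = 4.7e-12), whose GDX mice (20.2 to 44.8 CPM) all lay below the Intact mice. Slco1a4 rose to 105 to 218 CPM, above every Te Intact mouse (17.9 to 74.8 CPM; 1.87 ± 0.17, adjusted p = 3.9e-12). Cyp46a1, a cholesterol 24-hydroxylase, rose from 6.12 to 12.1 CPM (1.01 ± 0.20, adjusted p = 4.3e-05). After ovariectomy 27 were called, 19 higher and 8 lower, against 69.4% (36% higher and 33.4% lower). There Nr1h3, which encodes the oxysterol receptor LXR-alpha, fell by 0.88 (SE 0.13, adjusted p = 8.6e-08) and Slco1a1 by 1.20 (SE 0.46, adjusted p = 0.020). The basolateral exporter Abcc3 rose by 0.87 (SE 0.15, adjusted p = 2.3e-06) and Cyp46a1 by 1.38 (SE 0.21, adjusted p = 1.8e-07). On library totals the split was 18 higher and 6 lower after castration (7296 and 3211 of all genes).

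In castration minus ovariectomy, 10 of 35 pathway genes were called, 3 higher and 7 lower, against 5.6% of all genes (2.78% higher and 2.82% lower). They included Slco1a1 (-4.91 ± 0.66), Cyp7b1 (-1.62 ± 0.30), Slco1a4 (1.55 ± 0.23) and Akr1d1, the bile acid 5-beta reductase (0.85 ± 0.24, adjusted p = 0.030). In former ovaries against former testes 0 of 35 were called. In XX minus XY, 18 of 35 were called, 17 of them higher in XX, against 36.7% of all genes (21.9% higher and 14.8% lower). Abcc3 was 365 CPM in XX and 248 CPM in XY mice (0.54 ± 0.10, adjusted p = 4.4e-05), Cyp46a1 11.3 and 6.74 CPM (0.66 ± 0.14, adjusted p = 0.00025), and Nr1h3, the only call in the other direction, 91.3 and 127 CPM (-0.52 ± 0.09, adjusted p = 6.8e-06). On library totals this became 10 higher and 1 lower, where 1208 and 3081 of all genes were called higher and lower. With the macrophage covariate it became 2 higher and 0 lower, in a fit that called 1297 of 15414 genes. In Intact mice 7 were called, 6 higher in XX (4.27% of all genes) and 1 lower (6.42%), and on library totals 2 higher and 2 lower (281 and 864 of all genes). In GDX mice 18 were called, 17 of them higher, against 34.3% of all genes (19.5% higher and 14.8% lower). On library totals there were 8 higher and 1 lower (789 and 3406 of all genes), and with the macrophage covariate 0, in a fit that called 848 of 15414 genes. Slco1a1 was the single call of the interaction of chromosomes with GDX (2.96 ± 0.65, adjusted p = 0.013, 2.12% of all genes), with -1.48 ± 0.44 in Intact and 1.48 ± 0.47 in GDX mice. Its levels in GDX mice were low, at 3.85 to 32.3 CPM in XX and 2.44 to 6.05 CPM in XY. The call was lost with the share of reads outside genes as a covariate (0 of 35, and 2 of all genes) and with the macrophage covariate (0 of 35, and 7 of all genes).

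**Figure D4:**
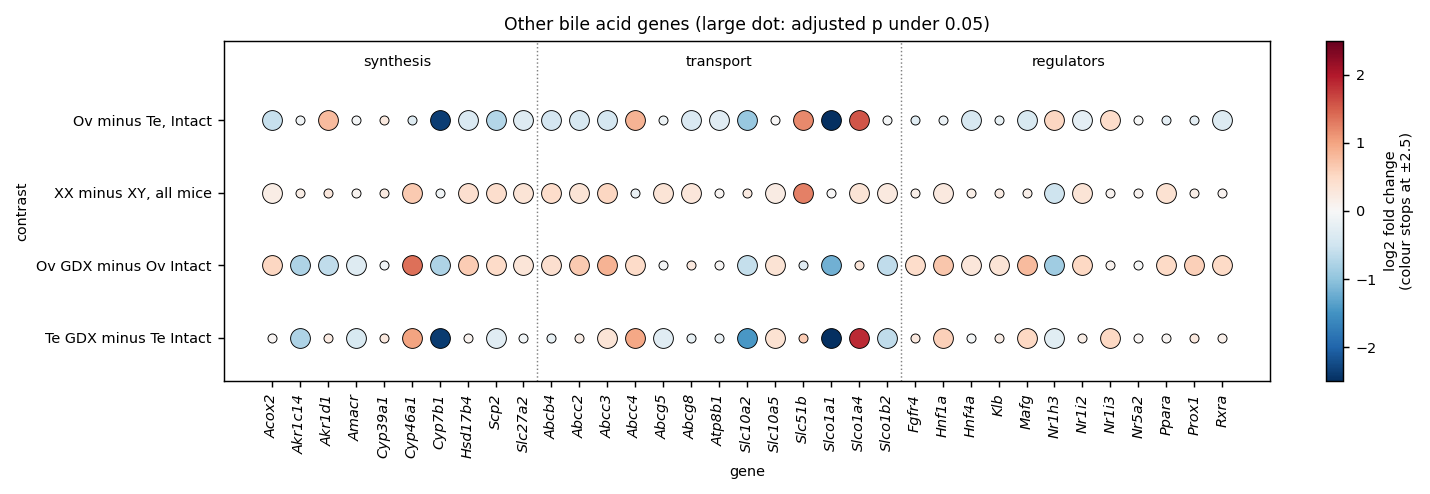
Log2 fold changes of the 35 other bile acid genes tested, by function (synthesis, transport, regulators), in 4 contrasts. Colour gives the value and stops at ±2.5, and large dots mark adjusted p under 0.05; Slco1a1 and Cyp7b1 are dark blue in Ov minus Te (-5.17 and -2.38) and after castration (-6.10 and -2.40).

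Across the 48 mice, which share group differences and scaling, the 10 genes formed loose pairs, given here as Spearman's rho without a test. Slc27a5 and Slc10a1 ran together (0.751), as did Slc10a1 and Nr1h4 (0.736) and Cyp7a1 and Cyp2c70 (0.566). Cyp8b1 and Cyp2c70, the enzymes that set the pool's composition, ran opposite (-0.599). By rank correlation over the same mice, the tested genes most like Cyp7a1 were Ist1 (0.745), Serpinb1a (0.709) and Umps (0.709). Those most like Cyp8b1 were Abhd4 (0.855), Olig1 (0.852) and Pex16 (0.836), and those most like Cyp2c70 were 4930581F22Rik (0.854), Pla1a (0.790) and Hsd17b6 (0.758). Baat was closest to Sugct (0.972), Azgp1 (0.967) and Mettl7a1 (0.960), and Abcb11 to Edem1 (0.916), Hmgn5 (0.905) and Larp1b (0.904). Leading matches were weaker for Nr0b2, with Pkdrej at 0.738, and intermediate for Cyp27a1 (Mocs1, 0.855), Slc27a5 (Proz, 0.845), Slc10a1 (Igfbp4, 0.853) and Nr1h4 (Masp2, 0.845).

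Within groups, 6 relations of the feedback loop were tested on log2 CPM centred on group means, with 2-sided permutation tests (100000 resamples) and Benjamini-Hochberg adjustment over the 6. None passed over all 48 mice, within Intact or within GDX mice. Nr1h4 and its target Nr0b2 gave r = -0.041 and rho = 0.0059 over 48 mice (permutation, adjusted p = 0.92 and 0.97). Nr0b2 and Cyp7a1, a repressor and its target, gave r = -0.015 and rho = -0.056 (permutation, adjusted p = 0.92 and 0.87). Nr0b2 and Cyp8b1 gave r = 0.37 and rho = 0.34 in the 24 Intact mice (permutation, adjusted p = 0.25 and 0.38) but r = -0.45 and rho = -0.51 in the 24 GDX mice (adjusted p = 0.21 and 0.088). Without the 2 mice farthest from the median these r were 0.26 and -0.36. Cyp7a1 and Cyp8b1 gave r = 0.55 and rho = 0.54 in GDX mice (permutation, adjusted p = 0.12 and 0.088), which became r = 0.32 without 2 mice, and r = 0.033 and rho = -0.0096 in Intact mice (adjusted p = 0.89 and 0.97). Nr0b2 with Abcb11 (r = 0.094, rho = 0.17) and with Slc10a1 (r = 0.070, rho = 0.12) over 48 mice had adjusted p of 0.89 by r and 0.72 by rho (permutation).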

How the data were processed

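Livers of 48 FCG mice were sequenced by the submitters as poly(A) RNA, with 1 library per mouse and 6 separate mice per group. The authors deposited whole-number read counts per Ensembl gene for each library, not normalized. Per the labels, the submitters' processing notes name STAR 2.7.10a, GRCm39 and DESeq2 1.36.0. The annotation release and strand setting are not given in the sources used here, so overlapping and antisense genes cannot be told apart. The 4 summary rows were left out of library sizes. Groups came from the genotype and treatment labels. The labels and the study's methods differ in the weeks of HFD, and the labels were followed.

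Symbols matched 31020 of 55414 identifiers. Counts of 15414 genes passing filterByExpr were fitted with edgeR 4.0.16 (TMM, robust quasi-likelihood, 8 group means, R 4.3.3), with Benjamini-Hochberg adjustment over all of them and a threshold of 0.05. Floors of 3 reads cover counting error only. On simulated data made for the gonadal contrast with 15414 genes, 169 of 194 tested genes with a log2 change of 1 were recovered (87.1%) and 8 of 177 calls were false. Alternatives were DESeq2 size factors or its Wald test (1.42.0), library totals, other filters on low counts, the compared arms alone, the share of reads outside genes or 1 surrogate variable (sva 3.50.0) as a covariate, a fold above 1.5, and each mouse left out. The macrophage covariate, GDX mice alone with the read share, and omission of XX Te Intact replicates 4 and 5 were added after seeing the data. Figures and other values were made with Python 3.11.15 with scipy 1.17.1. All 10 genes were named in each contrast. Of the other pathway genes, the text names at most 4 called genes per contrast, the 2 at either end by log2 fold change, provided the mean log2 CPM was 0 or more, and the 3 closest genes by rank correlation for a member. Feature lists and members were chosen with earlier results of these data known.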

Additional observations from a re-analysis of the deposited data

Results flagged for a closer look

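In 4 of 80 groups of 6 mice tested, 1 mouse lay far from the other 5, by the gap to its nearest neighbour over the group's range, past Dixon's critical value. Chance gives about 1 in 20 such groups. These were Cyp27a1 in XY Ov Intact replicate 3 (318 CPM, ratio 0.653), Slc27a5 in XY Ov Intact replicate 2 (438 CPM, 0.628), Slc27a5 in XX Te Intact replicate 2 (445 CPM, 0.631) and Slc10a1 in XX Te GDX replicate 3 (454 CPM, 0.696). The effect of castration differed from that of ovariectomy by the interaction term of the edgeR model for 5 of the 10 genes, against 5.6% of all genes. On the log2 scale the differences were 1.62 for Cyp7a1, 1.04 for Cyp2c70, -0.46 for Cyp27a1, -1.12 for Cyp8b1 and -1.21 for Nr0b2. The calls of Cyp27a1, Cyp8b1 and Nr0b2 were each lost in an alternative fit, as given above.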

How the results depend on the processing

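Of 990 values for single genes under alternatives other than leaving out a mouse, 871 kept their direction and side of the threshold, 42 lost a call and 24 gained one with the same sign, and 53 turned sign, of which 40 were called in neither fit. No paired analysis was possible because the mice of different groups are separate animals and replicate numbers only name them. With the share of reads outside genes as a covariate, 0 of the 10 genes were called after ovariectomy and 0 after castration (20 and 1161 of all genes). In that fit Cyp7a1 (0.22), Cyp27a1 (-0.15), Cyp2c70 (0.62) and Baat (1.04) turned sign after ovariectomy, and Baat (1.15) and Abcb11 (-0.26) after castration. The share did not overlap between Intact and GDX libraries, so these uncalled values cannot show the direction of a GDX effect. With 1 surrogate variable the counts were 5 in XX minus XY (7475 of all genes), 5 after ovariectomy (6838) and 7 in XX minus XY in GDX mice (7061). Baat became -0.30 in the gonadal effect and -0.29 in castration minus ovariectomy, and Cyp7a1 0.028 after ovariectomy. Requiring a fold above 1.5 left 1 in XX minus XY (1755 of all genes), 5 after ovariectomy (5993), 3 after castration (5072) and 1 in XX minus XY in GDX mice (2267). No filter beyond 1 count left 3 in castration minus ovariectomy (506 of all genes against 863), the compared arms alone gave 5 in XX minus XY in GDX mice (7297), and GDX mice alone with the read share gave 1 (2696). The macrophage covariate turned Slc27a5 (-0.053) and Nr1h4 (-0.0039) in XX minus XY (1297 of all genes called), and both (-0.075 and -0.0060) in GDX mice (848). The causes were not tested. Leaving out each mouse gave 5 to 6 calls in the gonadal effect, 2 to 5 in XX minus XY, 9 after ovariectomy, 6 to 8 after castration, 4 to 5 in castration minus ovariectomy, 2 to 5 in XX minus XY in GDX mice and 0 in the other contrasts. The count of 5 in XX minus XY came without XX Te Intact replicate 2, XX Te GDX replicate 3 or XY Ov Intact replicate 3. In GDX mice it came without XY Te GDX replicate 4, XX Te GDX replicate 3, XY Ov Intact replicate 3 or XX Ov Intact replicate 4. Over all single-mouse omissions all-gene counts ran from 3078 to 5624 (gonadal), 4931 to 6028 (XX minus XY), 10432 to 10994 (ovariectomy) and 9424 to 10314 (castration). They ran from 656 to 1863 in castration minus ovariectomy and from 4544 to 5548 in XX minus XY in GDX mice. In the contrasts with 0 members they were 13 to 16 (former gonads), 1345 to 2154 (XX minus XY in Intact mice), 115 to 748 (chromosomes by GDX) and 0 to 1 (chromosomes by gonad in Intact mice).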
